A study of Mus musculus with 6 samples.

Results

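The actin network that moves the meiotic spindle was followed through 9 genes, all of which were listed by symbol among the 25239 genes of the count table. They were chosen by function: the actin subunits Actb and Actg1, the filament nucleators Fmn2, Spire1 and Spire2, the vesicle motor Myo5b with the small GTPase Rab11a, and the actin-binding proteins Cfl1 and Pfn1. All 9 had counts, and 8 passed a filter on low counts that kept 4644 genes. The exception was Spire2.

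The mouse oocyte divides very unevenly. Its spindle forms near the centre and must reach the cortex, the layer beneath the membrane, before a small polar body can be cut off. A dynamic mesh of actin filaments in the cytoplasm carries it there. The formin FMN2 and the Spire proteins start these filaments from the surface of vesicles marked by RAB11A, and the motor myosin Vb moves the vesicles along the same filaments. Cofilin severs old filaments and profilin delivers actin subunits to formins. In the germinal vesicle (GV) oocyte, whose nucleus is still intact, most of these proteins are made from messenger RNA stored during growth.

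Each of the 6 libraries is described as 1 GV oocyte from the ovary of CD-1 mice, an outbred strain, taken from females aged 4 to 6 weeks. Cumulus-oocyte complexes, which are oocytes still enclosed by follicle cells, received an injection of water (3 libraries) or of mixed phthalate metabolites (3 libraries), and both groups were then cultured in the same maturation medium with 10% serum and 200 mIU/mL follicle-stimulating hormone. Phthalates are plasticizers, and the labels name neither the members of the mixture nor its dose. The comparison addresses what the mixture does to oocyte RNA. A protocol sentence can be read as 1 oocyte per group, no label names an animal or culture, and each group is therefore treated as 1 sample: no difference below has a test, and intervals cover counting error only.

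Total gene counts ran from 252267 to 300917 per library. All 15 oocyte markers had counts, 14 of them in every library, and Gdf9 alone had 2184 to 3296 counts per library. Of 20 markers of cumulus and granulosa cells, 11 were at 0 in all libraries, among them Amh, Foxl2 and Vim. The summed markers ranged from 15 to 41 counts in the water libraries and from 10 to 21 in the phthalate libraries. Most came from Nr5a2, without which the groups had 17 and 12 counts. The part of follicle-cell RNA in the results was not tested. Fewer molecules per oocyte and a smaller share of the library cannot be told apart in these values, which are scaled to the library. Added spike-in RNA (ERCC) had from 292 counts in phthalate library 3 to 753 in water library 1, and served only as an alternative scaling.

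Sequences are shown where they bear on what was counted. Actb on chromosome 5 and Actg1 on chromosome 11 encode nearly the same protein, so the first question is whether their reads can be separated. The first 60 bases of the coding sequences, on the minus strand of mm10 (GRCm38) at chr5:142905627-142905686 and chr11:120348032-120348091, read as follows, with the bases that differ in capitals.
Actb: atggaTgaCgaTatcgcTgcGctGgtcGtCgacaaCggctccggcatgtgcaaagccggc
Actg1: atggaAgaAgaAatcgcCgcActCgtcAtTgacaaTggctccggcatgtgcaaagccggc
The 9 differences in this stretch include those that set the acidic residues at the start of the 2 proteins apart. Over the coding length of 1128 bases, 128 bases differ, an identity of 88.7%, and the longest run without a difference is 62 bases. No stretch as long as a 150 bp read is shared between the genes. Actg1 has another problem: 43.5% of the 150-base stretches of its main transcript recur exactly in 3 other annotated transcripts (Gm12715, Gm16385 and Gm8399), none of which is a row of the table. For the other 8 members this share was 0. How reads with several matches were counted is not stated, so counts of Actg1 are the less certain of the actin pair.

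Reverse transcription began at the poly(A) tail, so the 3′ end is where capture started. The last bases of 5 annotated transcripts (GENCODE M21, mm10) are shown with the polyadenylation hexamer AATAAA in capitals. They lie at chr1:174822700-174822729 (plus strand) for Fmn2, chr5:142903119-142903148 (minus, 4 bases before the end) for Actb, chr11:120345690-120345719 (minus) for Actg1, chr19:5495172-5495201 (plus) for Cfl1 and chr11:70651850-70651879 (minus) for Pfn1.
Fmn2: ttatatgaaAATAAAatgaatAATAAAata
Actb: ccAATAAAagtgcacaccttaccttacaca
Actg1: gtaaagaAATAAAagtgctgcagtaactga
Cfl1: taAATAAATAAAtgAATAAATAAAactttt
Pfn1: ttttttctgAATAAAaaaagattctactaa
The hexamer was present in the last 100 bases of 8 of the 9 members, all but Spire2, beside 66.5% of the 4527 coding genes that passed the filter and had an annotated main transcript. The cytoplasmic polyadenylation element, through which stored oocyte RNAs regain their tail when meiosis resumes, was searched on the transcript strand as TTTTAT or TTTTAAT in the same window. It was found in 2 members, Spire1 and Rab11a, and in 20.7% of those genes. Rab11a had 2 matches. The match nearer the 3′ end is in capitals below, within the stretch chr9:64715340-64715369 (minus strand).
Rab11a: ttggacttttTTTTAATctattgatttgga
A match is a description of these letters and says nothing of the tail length in these oocytes.

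Of the 8 members that passed the filter, 1 lay past 1.5-fold between the groups, and that was Fmn2. Over all 4644 genes that passed, 15.1% lay past 1.5-fold in either direction, and over the 2784 of them with a mean count of at least 20, as all 8 members had, it was 8.12%. Fmn2 was also the member whose 3 phthalate values all lay above its 3 water values, and 10.1% of the 4644 genes (10.2% of the 2784) had groups that did not overlap in either direction. With 1 member of 8 in each count, the network as a set was near these backgrounds. The summed counts of the 9 members were 1372 (water) and 1375 (phthalate), or 0.161% and 0.167% of all gene counts.

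Fmn2, on chromosome 1 (174501825 to 174822729, plus strand), encodes the oocyte's main formin of the cytoplasmic mesh. It is a gene of 320.9 kb whose main transcript has 18 exons, with no other annotated gene over it. Water libraries 1, 2 and 3 had 34, 39 and 18 counts, and phthalate libraries 1, 2 and 3 had 66, 62 and 36. As CPM (counts scaled to 1000000, with edgeR's TMM factors for library composition) these were 122, 131 and 63.5 against 255, 206 and 140. Water library 3 was the lowest of the 6 and phthalate library 1 the highest, and the gap between the groups, from 131 to 140, was small beside the range within each. When levels were instead scaled per transcript length, phthalate library 3 (45.0) lay just under water library 2 (45.8), so the absence of overlap depended on the scaling.

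The summed counts of Fmn2, 91 and 164, gave a ratio of 1.89-fold, a log2 ratio of 0.92 with a 95% counting interval from 0.38 to 1.48. Of the 1884 genes with mean counts in the range of the members, 5 had a higher ratio, and 90% of them lay between -0.51 and 0.53. Leaving out 1 library at a time gave log2 ratios from 0.66, without water library 3, to 1.12, without water library 2. Fmn2 stayed past 1.5-fold in each of these.

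**Figure D1:**
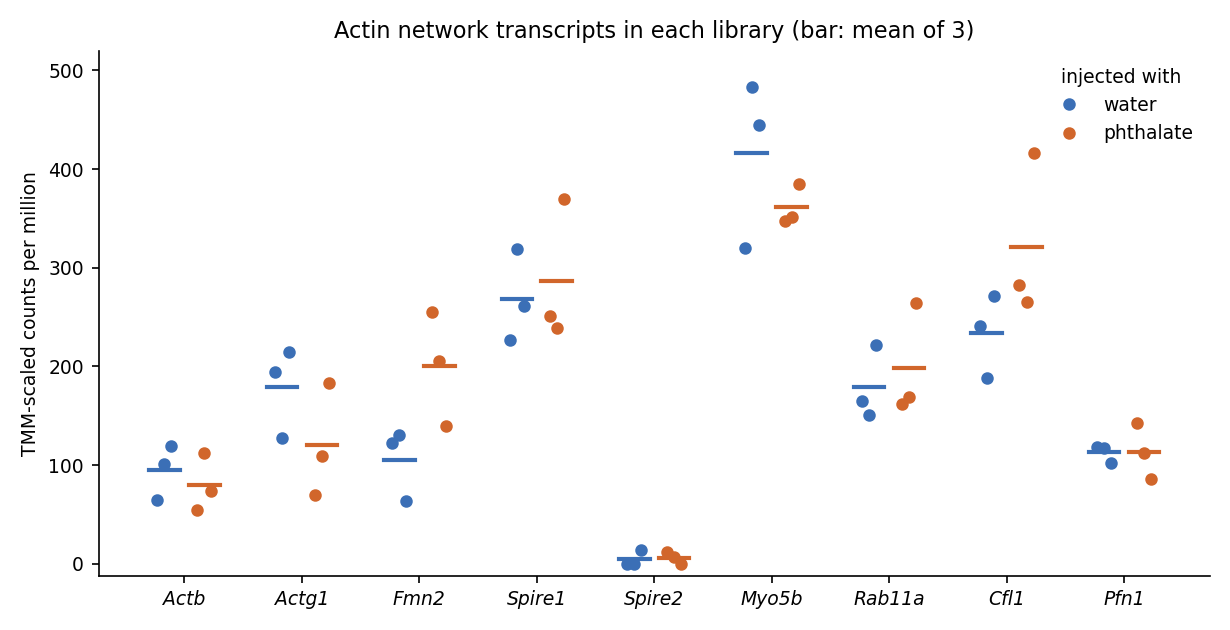
TMM-scaled CPM of the 9 genes in each of the 6 libraries (points, blue for water and orange for phthalate), with the mean of 3 libraries per group as a bar. The orange points of Fmn2 (140 to 255) lie above its blue points (63.5 to 131), the groups of the other 8 genes overlap, and Spire2 lies near 0.

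None of the partners of Fmn2 had a ratio of that size. Spire1, which binds FMN2 and helps it to start filaments, had CPM of 227, 319 and 261 after water and 251, 239 and 370 after phthalate. Phthalate library 3 was the highest of the 6, and the groups overlapped. With 232 counts in either group, its log2 ratio was 0.07 (-0.31 to 0.46). The gene is on chromosome 18 (67488209 to 67610790, minus strand).

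Spire2, its paralog on chromosome 8 (123332713 to 123369515, plus strand), was close to undetected. Its counts were 0, 0 and 4 after water and 3, 2 and 0 after phthalate. The ratio of the sums, 4 and 5, had an interval from -2.99 to 4.06 on the log2 scale and gives no direction. The readthrough gene Gm20388, which is not a row of the table, has a span that overlaps exons of Spire2. Among the Spire genes, nearly all counts thus belonged to Spire1. Counts of Fmn2 divided by those of Spire1 were 0.540, 0.411 and 0.243 after water and 1.02, 0.861 and 0.379 after phthalate. The ratio in phthalate library 3 lay within the water range, so the balance of the 2 nucleators did not separate the groups.

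Myo5b encodes the myosin that walks vesicles along the mesh and had the most counts of the 9 genes. It lies on chromosome 18 (74440936 to 74771493, plus strand), with 39 exons in its main transcript. Its CPM was 320, 484 and 444 after water and 348, 351 and 385 after phthalate. The phthalate values lay close together inside the wider water range. Sums of 359 and 295 counts gave a log2 ratio of -0.21 (-0.54 to 0.11). Without water library 1, the lowest of its group, the groups no longer overlapped and the log2 ratio was -0.36.

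By the root-mean-square difference of centred log2 CPM over the 6 libraries, the genes whose pattern was most like that of Myo5b among 2783 were Cul1 (0.0629), Espl1 (0.0704) and Bptf (0.0734). Cul1 encodes a ubiquitin ligase scaffold, Espl1 the protease separase and Bptf a chromatin remodelling subunit. Their log2 ratios were -0.19, -0.26 and -0.13. These are the nearest of many genes over 6 values, and a link with Myo5b was not tested.

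Rab11a marks the vesicles that carry the nucleators. It lies on chromosome 9 (64715299 to 64737758, minus strand). Its CPM was 165, 151 and 222 after water and 162, 169 and 265 after phthalate. In both groups library 3 was highest, and the ranges overlapped. The log2 ratio was 0.14 (-0.33 to 0.61) from 154 and 161 counts. The closest paralog, Rab11b, had 11 and 7 counts, so the counts of this pair came mostly from Rab11a. Of the other class V myosins, Myo5a had 39 and 36 counts and Myo5c had 0. The annotated gene Gm47308, which is not a row of the table, has a span that overlaps exons of Rab11a.

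The actin subunits were modest in number for genes often used as a constant reference. Actb (chromosome 5, 142903115 to 142906754, minus strand) had 18, 30 and 34 counts after water and 14, 34 and 19 after phthalate. The groups overlapped, and the ratio of the sums (82 and 67) was -0.22 on the log2 scale (-0.92 to 0.47). The interval included 0. The log2 ratio was -0.58 without phthalate library 2 and -0.01 without phthalate library 1.

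Actg1 (chromosome 11, 120345690 to 120348542, minus strand) had CPM of 194, 128 and 215 after water and 69.6, 109 and 183 after phthalate. Phthalate library 3 lay above water library 2, so the groups overlapped. Its log2 ratio was -0.57 (-1.12 to -0.03) from 153 and 98 counts, the lowest of the 8 and just inside 1.5-fold. Division by library totals alone (-0.59) or means of log2 CPM (-0.61) placed it just past that mark. It was -0.77 without water library 2 and -0.97 without phthalate library 3, and either omission also ended the overlap. Without phthalate library 1 it was -0.32. The annotated gene Gm23419, which is not a row of the table, has a span that overlaps exons of Actg1.

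Both actin genes had lower sums in the phthalate group, but their balance within a library varied. Counts of Actg1 divided by those of Actb were 3, 1.27 and 1.79 after water and 1.29, 0.971 and 2.47 after phthalate. These values overlapped. Actin genes of muscle added little: Acta1, Acta2 and Actc1 were at 0 in every library and Actg2 had 7 and 8 counts.

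Cfl1 encodes cofilin-1, which severs filaments and returns their subunits. It lies on chromosome 19 (5490455 to 5495201, plus strand). Its CPM was 241, 188 and 272 after water and 282, 265 and 416 after phthalate. Phthalate library 2 lay just under water library 3, and phthalate library 3 was the highest. The log2 ratio was 0.45 (0.06 to 0.84) from 200 and 260 counts. Without phthalate library 3 it was 0.23, and without water library 3 or phthalate library 2 the groups did not overlap. The span of Snx32, on the opposite strand, overlaps exons of Cfl1, and Snx32 had 11 counts over all libraries. Whether exons of Snx32 do so was not examined. The relatives Cfl2 and Dstn encode the other depolymerizing factors of the family, and neither had a positive ratio. Cfl2 had 77 and 70 counts (log2 ratio -0.07) and Dstn 68 and 43 (-0.59 with an interval from -1.44 to 0.23). Dstn lay just past 1.5-fold, but its phthalate CPM ran from 15.5 to 101 and overlapped the water values.

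Pfn1 encodes profilin-1, which loads actin onto formins. It lies on chromosome 11 (70651850 to 70654644, minus strand). Its CPM was 119, 118 and 102 after water and 143, 113 and 85.6 after phthalate. The water values lay inside the phthalate range. The log2 ratio was 0.01 (-0.60 to 0.62) from 97 and 93 counts. The other profilins were sparse, with 4 and 14 counts for Pfn2, 8 and 3 for Pfn4 and 0 for Pfn3.

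**Figure D2:**
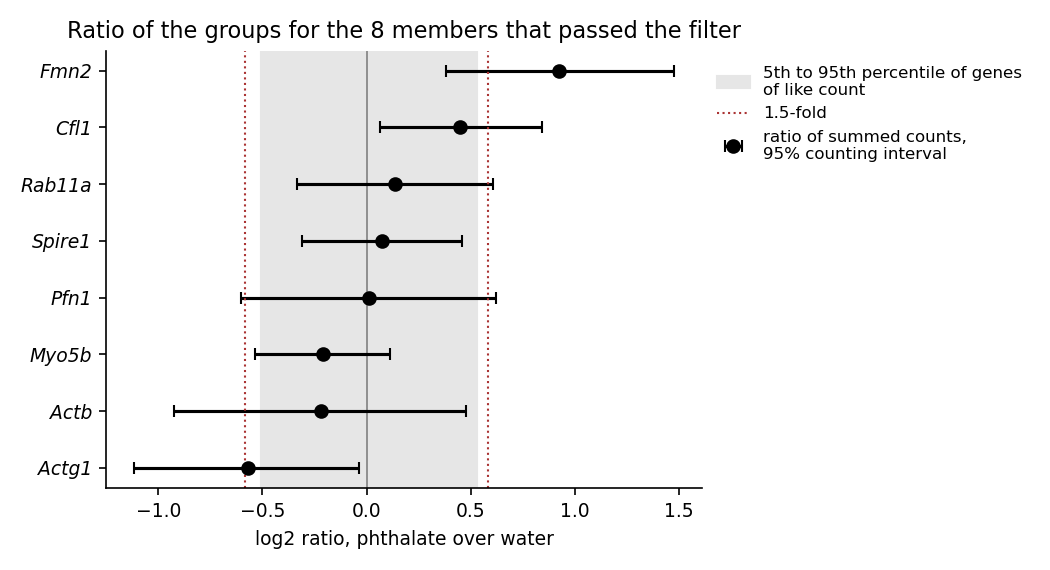
Log2 ratio of phthalate over water (points) with 95% counting intervals for the 8 genes that passed the filter. The grey band spans the middle 90% of the 1884 genes of like count (-0.51 to 0.53) and dotted lines mark 1.5-fold. Fmn2 (0.92) lies above the band, Actg1 (-0.57) below it, and the other 6 inside.

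Spread between the libraries of a group varied among members. The within-group chi-square per degree of freedom, computed like the intervals on halved counts and near 1 on average for counting noise alone but itself imprecise with 3 libraries a group, had a median of 1.73 over the 8 genes and of 1.16 over the 1884 genes of like count. It was 2.64 for Actg1, 1.997 for Cfl1 and 1.98 for Fmn2. Pfn1 was the steadiest at 0.521. Thus 3 members whose interval did not include 0 (Fmn2, Actg1 and Cfl1) were also the 3 that varied most within a group, a spread that the interval does not contain.

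Levels can be compared between genes only per length. As counts per kb of the longest annotated transcript, scaled to 1000000 over all genes in each library, Cfl1 was highest with 266 ± 61.3 (SD over the 6 libraries). Rab11a followed with 183 ± 34.5, Actg1 with 173 ± 62.8, Myo5b with 131 ± 20.1 and Pfn1 with 130 ± 27.2. Spire1 had 116 ± 17.5, Actb 104 ± 32.7, Fmn2 54.4 ± 25.9 and Spire2 5.39 ± 6.34. By this length Cfl1 exceeded Rab11a in 6 of 6 libraries, and Fmn2 exceeded Spire2 in 6 of 6 with no overlap of ranges.

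The middle of the order was not resolved over the 6 libraries. Rab11a exceeded Actg1 in 3 of 6 libraries, those of the phthalate group. Group means of Rab11a and Actg1 were 175 and 209 after water and 190 and 137 after phthalate. In water library 2 these genes were close (146 and 147), and the split by group was not tested. Myo5b exceeded Pfn1 in 3 of 6, and the neighbours from Actg1 to Actb changed places in 2 or 3 libraries, with overlapping ranges throughout. Fmn2 lay below Actb in 5 of 6. By this length the level of Fmn2 was 37.3 after water and 71.5 after phthalate. Among 12543 detected genes with a length, Actb ranked 1533, Fmn2 2598 and Cfl1 614.

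The order depended on the transcript length used. For Pfn1 the longest annotated transcript (1997 bases) is more than double its main one (861 bases). With main transcript lengths its level was 270.5, the highest of the 9 and ahead of Cfl1 at 239, while Actb, Fmn2, Spire1 and Spire2 kept their places in the order. With the median length of a gene's annotated transcripts, many of them short fragments, Myo5b was highest at 546, followed by Rab11a at 340 and Cfl1 at 309. Fmn2 then moved from place 8 to place 4 of the 9, at 249. Spire2 was lowest by all 3 lengths.

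**Figure D3:**
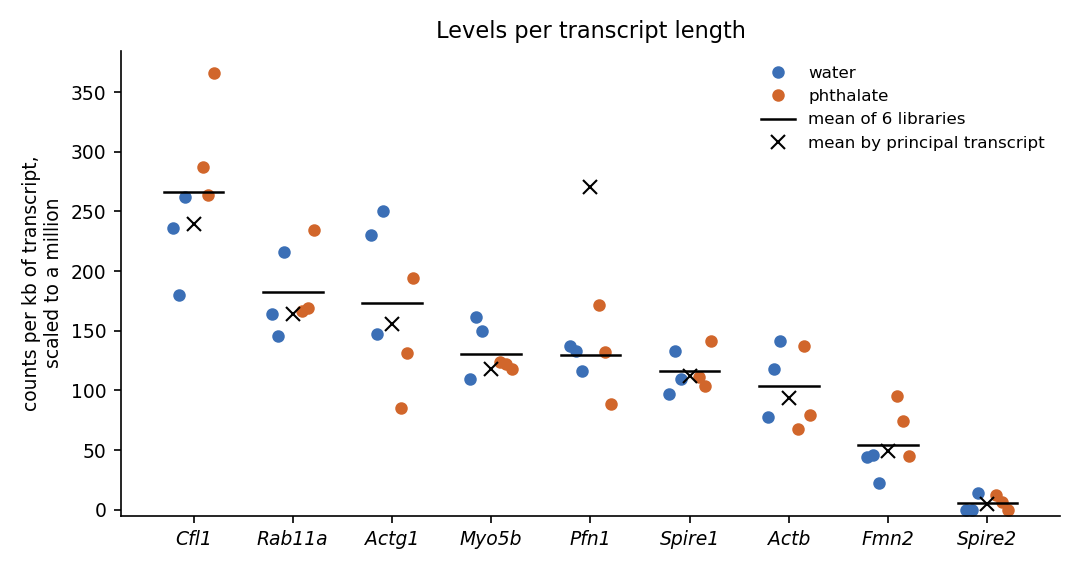
Counts per kb of the longest transcript, scaled to 1000000, in each library (points by group), with the mean of 6 libraries as a line and the mean by main transcript length as a cross. Genes are ordered by the mean, from Cfl1 (266) to Spire2 (5.39), and the cross of Pfn1 (270.5) stands far above its line (130).

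The wider actin network was described with 131 further genes in 8 groups, of which 112 had a count and 57 passed the filter. Their median log2 ratio was -0.04, beside 0.01 over all 4644 genes. Past 1.5-fold lay 7 with higher and 3 with lower phthalate sums, 17.5% of the 57 against 15.1% of all genes (6.96% higher and 8.14% lower), and 5 (8.77%) had groups without overlap against 10.1%.

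None of the 6 other nucleators of unbranched filaments that passed lay past 1.5-fold, and 5 had negative ratios. The formin Fmnl3 had 375 and 430 counts (log2 ratio 0.27, interval -0.02 to 0.56) and the formin Fhod3 347 and 289 (-0.19, -0.52 to 0.14). Each had more counts than Fmn2. Diaph1, another formin, named after its values were seen, had 245 and 202 counts, and its 3 phthalate values lay below its 3 water values at a log2 ratio of -0.21. Differences between the ratios of formins were not tested.

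The Arp2/3 complex starts branched filaments, which form the cortical actin cap. Of its 9 genes 7 passed, 5 with ratios above 0 and 2 below. Arpc5l had 514 and 417 counts (-0.23) and Arpc3 246 and 254 (0.12). Arpc2 had 68 and 98 (0.60, -0.06 to 1.28). Arpc4 and Actr3 were singled out after their values were seen. Arpc4 had the lowest ratio of the 57, and Actr3 (25 and 45 counts, 0.92, -0.14 to 2.05), a core subunit of the same complex with a like count, lay past 1.5-fold the other way. The counts of Arpc4 summed to 50 and 12, with CPM of 86.3, 40.3 and 49.4 against 19.3, 6.63 and 19.5, and the log2 ratio was -1.99 (-3.56 to -0.67). Ratios scatter most at such low counts, and the filter partly sets both ratios: Arpc4 passed only through its water libraries and Actr3 only with its phthalate libraries. Among activators and brakes of Arp2/3, 9 of 22 genes passed with a median of -0.01. Wasf2 had 163 and 142 counts (-0.13) and Brk1 73 and 77 (0.15), both of the WAVE complex. Whamm, an activator found on membranes, had 47 and 89 counts (0.99, 0.24 to 1.78), with phthalate library 3 inside the water range.

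For vesicle transport, 4 of 12 further genes passed. Rab11fip1 encodes an effector of RAB11, and its counts of 6, 10 and 13 against 22, 21 and 16 gave a log2 ratio of 1.10 (0.14 to 2.11) without overlap. Counts were low in every library, and the gene passed the filter only with its phthalate libraries, so the direction and the absence of overlap are partly set by the filter. The other 3 had negative ratios, among them the filopodial motor Myo10 (102 and 74 counts, -0.39). Among genes of monomer binding and turnover, 7 of 21 passed with a median of -0.04. Tmsb10, a thymosin that holds actin monomers, had 307 and 278 counts (-0.07).

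Capping and bundling genes had 10 of 27 that passed and a median of 0.11. Actn1, a crosslinker, had 80 and 53 counts (-0.52, -1.29 to 0.22). Cortical myosin and GTPase genes had 14 of 20 that passed and a median of -0.07. Rock1, a kinase that acts on myosin and, through LIM kinases, on cofilin, had 251 and 390 counts, a log2 ratio of 0.71 (0.38 to 1.04). Its CPM was 371, 265 and 243 against 560, 554 and 303, so phthalate library 3 lay within the water range. The cytokinesis gene Racgap1 had 163 and 137 counts (-0.18).

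**Figure D4:**
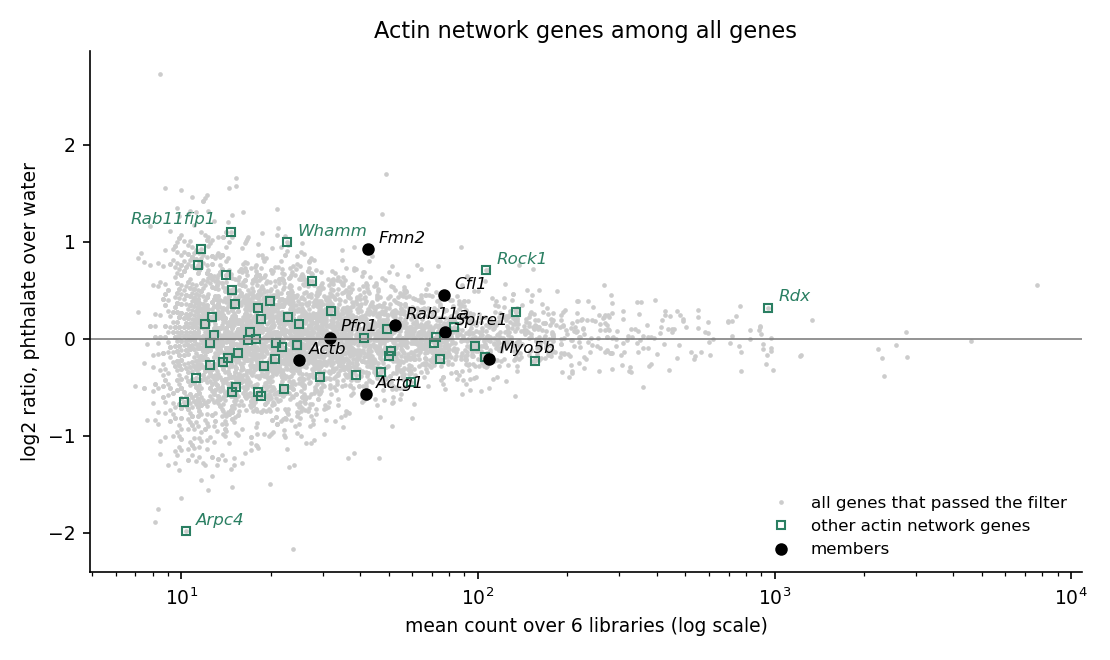
Log2 ratio of phthalate over water against the mean count over 6 libraries (log axis) for the 4644 genes that passed the filter (grey), the 57 other actin network genes (green squares) and 8 members (black). The scatter narrows with abundance. Fmn2 (0.92) lies at the upper edge of genes of its count and Arpc4 (-1.99) at the lower edge among scarce genes.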

How the data were processed

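The members and gene lists were chosen with earlier results of these data known. Nextera XT libraries from Smart-seq3 cDNA were sequenced as 150 bp pairs, per the labels' protocols. The authors deposited raw counts per gene symbol for 25239 genes and 92 ERCC spike-ins. The submitters' processing notes name cutadapt, Trimmomatic, HISAT2, DESeq2 and build mm10. The counter, the annotation, strand use and the handling of molecular identifiers are not given in the sources used here. In every library more genes had 2 counts than 1, and even values made up 68.0% to 71.1% of counts from 1 to 20, so intervals were computed on halved counts.

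Genes were filtered with filterByExpr (minimum count 10, minimum total count 15) and scaled with TMM factors in edgeR 4.0.16 (R 4.3.3). The filtered genes held 91.5% to 93.1% of the counts of a library. A group's counts were added up and set over its scaled totals, as a log2 ratio of phthalate over water, with a 95% exact (Clopper-Pearson) interval. If the counts hold PCR copies, which was not tested, this interval is too narrow. A sum of 0 was set to 3 counts, and no ratio was given with both sums at or under 3. The ratio script was tested on simulated data. Coordinates and lengths came from GENCODE M21 (GRCm38).

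Named genes were the 9 members, their paralogs, the 3 largest ratios in each direction (mean count at least 20) and the 2 most counted genes of each list, and the 3 genes most like the most counted member. One gene under this rule is not reported here, and genes outside it are marked as named after their values were seen. Alternatives were library totals, DESeq2 1.42.0 size factors, ERCC totals, no filter, means of log2 CPM (prior count 2), each library left out and other transcript lengths.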

Additional observations from a re-analysis of the deposited data

How the results depend on the processing

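No paired analysis was possible because the labels name no animals or cultures that numbers could pair, and no result comes from a test. Of 153 values under alternatives, 139 counted as unmoved: within their interval or spread, or for counts of members within 1.5-fold of the main count. A change of sign was scored only for Fmn2, the member past 1.5-fold in the main setting, and it had none. Members past 1.5-fold numbered 2 with library totals and 2 with means of log2 CPM (Fmn2 and Actg1 both times), and from 1 to 2 with each library left out. Members without overlap numbered from 1 to 2 with each library left out. Fmn2 was among both under the 12 alternatives to its ratio; its groups overlapped only by levels per length, and a sign that separate groups fix says nothing of stability. ERCC totals moved the median of all genes from 0.01 to 0.12, and with it the median of the wider actin list from -0.04 to 0.072. That median was 0.034 without a filter, where scarce genes enter, and from -0.12 to 0.021 with each library left out, so its sign was not fixed. The signs of Spire1, Pfn1, Rab11a and Spire2 changed with the library left out, within their intervals. In the order per length, 3 of 9 genes kept their place with median transcript lengths and 4 with principal transcript lengths. The alternatives without Rn45s and with principal lengths, and the background at a mean count of at least 20, were chosen after seeing the data. Whole counts in place of halved ones would narrow every interval. At this depth a member with under 100 counts per group had an interval over 1 wide on the log2 scale.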

Other observations

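An actin-binding gene stood out by counts. Rdx, which encodes radixin, a linker between cortical actin and the membrane, had 2606 counts after water and 3092 after phthalate. Its CPM was 2529, 3388 and 3152 after water and 4070, 3172 and 4210 after phthalate, and the groups overlapped at a log2 ratio of 0.32 (95% counting interval 0.21 to 0.43). Within-group spread far exceeded counting noise, with a chi-square per degree of freedom of 10.6 on halved counts. Its close relatives Ezr (4 and 2 counts) and Msn (5 and 6 counts) were nearly absent. Per transcript length the mean levels over the 6 libraries were 1770 for Rdx, 2.65 for Ezr and 4.06 for Msn. By the same measure Tmsb10 had 1144 and Arpc3 had 755, so per length Rdx did not stand alone in the wider list. Of these 3 related genes, 1 was abundant in both groups. Ezr and Msn were singled out after their values were seen.

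Some other relatives, likewise chosen after their values were seen, were also uneven by counts, which are not divided by length here. Tmsb10 had 307 and 278 counts and Tmsb4x had 0. Diaph1 had 245 and 202, Diaph3 had 64 and 50, and Diaph2 had 0. Rock1 had 251 and 390 counts and Rock2 had 11 and 9. Whamm had 47 and 89 and Jmy, its paralog, had 6 and 2. Arpc5l had 514 and 417 counts and Arpc5, the alternative subunit of the same complex, had 19 and 9. Relatives with closer counts, also chosen after their values were seen, included Cyfip1 (68 and 56) with Cyfip2 (52 and 49). Actn1 (80 and 53) with Actn4 (127 and 121) was another such pair. Sequence shared with other genes was examined for the 9 members only.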
